A study of Rattus norvegicus with 35 samples.

Results

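The Cyp3a genes are the rat members of cytochrome P450 family 3A. They were taken as every probe set of the deposited arrays whose platform symbol starts with Cyp3a. Of the 5 named genes, 4 had a probe set, 1 each: Cyp3a23-3a1, Cyp3a2, Cyp3a18 and Cyp3a9. They stand among 14217 genes and 31042 tested probe sets. Cyp3a62 was not analysed here. The arrays are of liver RNA from single Wistar Han IGS rats. The treated rats were exposed to a triazole fungicide in the diet from gestation day 6 to postnatal day 92. The groups were myclobutanil at 500 ppm (n = 5) and 2000 ppm (n = 4), propiconazole at 500 ppm (n = 3) and 2500 ppm (n = 4), triadimefon at 500 ppm (n = 5) and 1800 ppm (n = 4), and controls at 0 ppm (n = 7). No genetic change is named for any group, and the labels do not state the sex of the animals or whether they shared litters. All 3 compounds carry a triazole ring, and they differ in that triadimefon has a ketone, propiconazole a cyclic ketal and myclobutanil a nitrile.

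CYP3A enzymes sit in the endoplasmic reticulum of hepatocytes and oxidise steroids, bile acids and many drugs. Their genes are classical targets of the pregnane X receptor (PXR, Nr1i2), which binds pairs of a short DNA hexamer as a dimer with a retinoid X receptor, and the related receptor CAR (Nr1i3) shares many of these targets. In rat liver Cyp3a23-3a1 is the form known for induction by dexamethasone and pregnenolone carbonitrile. Cyp3a2 and Cyp3a18 are known as male-predominant forms, and Cyp3a9 as a female-predominant one. Cyp3a62 is known mainly from the intestine.

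All 5 genes lie on chromosome 12 in the GRCr8 gene table. Cyp3a2 and Cyp3a23-3a1 are next to each other there, with 0 listed genes between them, and 6 listed genes separate Cyp3a18 from Cyp3a2. Cyp3a62 and Cyp3a9, with 5 genes between them, lie apart, beyond 170 further genes. The windows of 300 bases around the start sites, most of each upstream, were read from RefSeq on GRCr8, where all 5 genes matched by symbol. A direct repeat of the hexamer with 3 bases between, TGAACTNNNTGAACT on either strand, is a known form of PXR site. It was present in the windows of Cyp3a23-3a1 and Cyp3a2, in no other Cyp3a window, and in 2 of 33469 windows of this length in all (0.00598%). Those windows are shown because these genes are compared as a pair, and with them that of Cyp3a9, the gene least like the others over the arrays. Capitals mark each match of the hexamer TGAACT on either strand and, in Cyp3a23-3a1 and Cyp3a2, the whole direct repeat, which holds both of their hexamers. Each is written 5′ to 3′ on the gene's strand, which is the minus strand in all 3.
Cyp3a23-3a1, chr12:14398754-14399053: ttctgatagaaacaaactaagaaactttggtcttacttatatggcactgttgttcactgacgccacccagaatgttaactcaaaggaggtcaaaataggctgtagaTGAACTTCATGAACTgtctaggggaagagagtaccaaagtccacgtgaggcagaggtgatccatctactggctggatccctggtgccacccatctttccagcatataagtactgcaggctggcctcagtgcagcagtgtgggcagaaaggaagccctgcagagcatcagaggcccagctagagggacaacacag
Cyp3a2, chr12:14343808-14344107: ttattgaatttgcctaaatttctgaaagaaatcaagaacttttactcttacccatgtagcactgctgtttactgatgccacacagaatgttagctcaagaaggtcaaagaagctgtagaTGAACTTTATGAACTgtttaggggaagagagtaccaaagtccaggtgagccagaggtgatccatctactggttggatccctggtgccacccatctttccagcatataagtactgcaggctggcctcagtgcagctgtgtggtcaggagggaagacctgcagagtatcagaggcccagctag
Cyp3a9, chr12:21960111-21960410: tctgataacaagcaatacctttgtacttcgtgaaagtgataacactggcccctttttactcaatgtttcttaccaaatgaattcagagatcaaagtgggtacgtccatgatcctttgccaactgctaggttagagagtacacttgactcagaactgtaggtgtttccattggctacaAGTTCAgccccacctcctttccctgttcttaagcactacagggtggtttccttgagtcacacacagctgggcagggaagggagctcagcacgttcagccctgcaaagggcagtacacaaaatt
The windows of Cyp3a23-3a1 and Cyp3a2 were 80.6% identical in a global alignment, and Cyp3a9 shared 55.1% with Cyp3a23-3a1 and 51.5% with Cyp3a2. The repeat begins 144 bases before the start of Cyp3a23-3a1 and 131 bases before that of Cyp3a2. Cyp3a18 held 2 separate hexamers and Cyp3a9 held 1, and a single hexamer is common, being in 14.5% of all windows. The exact letters of an everted repeat with 6 bases between, TGAACTNNNNNNAGTTCA, were in 0 of the 33469 windows. A pattern found in no window cannot tell the Cyp3a genes apart. Everted repeats of hexamers that differ from these letters were not searched for, so their absence is not shown. These are matches of letters, and binding was not measured.

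The values are scores as deposited, 1 per probe set and array, for which no source states the log base, centring or normalisation, so a difference of scores is not read as a fold change. The top of the scale was stretched unequally: the highest score of an array ran between 4.76 and 9.01. Myclobutanil 500 ppm replicate 1 held the highest of these, and in 9 arrays the Gapdh control probe sets scored over 0.9 higher at the 3′ than at the 5′ end, a reading of RNA integrity. These were triadimefon 1800 ppm replicates 2 to 4, myclobutanil 500 ppm replicates 1 and 5, and controls 4 to 7. Albumin had a median place of 1 from the top of the arrays and all 14 measured hepatocyte markers had mean scores above 0 in every group, as the liver label states. The extraction protocol names testis. Testis markers were low, but Prm1, a sperm protamine, reached 3.15 in triadimefon 1800 ppm replicate 2, 2.68 and 2.42 in myclobutanil 500 ppm replicates 5 and 2, 2.51 in myclobutanil 2000 ppm replicate 5 and 2.15 in triadimefon 500 ppm replicate 3, against at most 1.71 in the controls.

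The Cyp3a scores stood higher at triadimefon 1800 ppm than in the controls for all 4 genes, by 0.684 to 0.982, and none of the 4 passed the test. A comparison counted as passed at an adjusted p under 0.05 in limma's moderated test on all probe sets, two-sided and with Benjamini-Hochberg adjustment. In this comparison 1.17% of all probe sets passed. An unadjusted p under 0.05 was found for 3 of the 4 Cyp3a genes and for 10.8% of all probe sets. The median difference was 0.885 over the 4 genes and 0.0185 over all probe sets. It was 0.278 over the 14 hepatocyte markers, which score high as the Cyp3a genes do, and all 14 were higher.

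Cyp3a23-3a1 scored 5.84, 5.09, 5.23 and 4.85 in the 4 livers of triadimefon 1800 ppm. Its controls ran from 3.70 through a median of 4.14 to 5.01. The groups overlap by 1 treated liver, which lies below the highest control. The means were 5.25 ± 0.423 at triadimefon 1800 ppm and 4.27 ± 0.482 in the controls (SD, n = 4 and 7), a difference of 0.982 ± 0.370 (SE; 95% interval 0.222 to 1.74; adjusted p = 0.260 in limma).

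Cyp3a18 scored 5.31, 4.61, 5.15 and 4.42 at triadimefon 1800 ppm. Its controls ran from 3.56 through a median of 3.94 to 4.38, so that each of the 4 treated livers stood above every control. The difference was 0.901 ± 0.301 (SE; 95% interval 0.282 to 1.52; limma adjusted p = 0.177). Cyp3a9 was separated in the same way, at 3.79, 3.66, 3.79 and 3.72 in the treated livers against a range of 2.55 to 3.50 and a median of 2.80 in the controls. The share of all probe sets so separated is not given, so these separations are a description only. Its treated livers lay close together, with an SD of 0.0604 against 0.307 in the controls. The difference of 0.870 ± 0.296 (SE; 95% interval 0.262 to 1.48) had an adjusted p of 0.186 in limma.

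Cyp3a2 differed least. Its scores were 5.55, 5.00, 5.08 and 4.65 at triadimefon 1800 ppm, and its controls ran from 3.80 through a median of 4.34 to 5.24. Only replicate 1 of the 4 treated livers stood above every control. The difference was 0.684 ± 0.378 (SE; 95% interval -0.0916 to 1.46; limma adjusted p = 0.558).

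**Figure D1:**
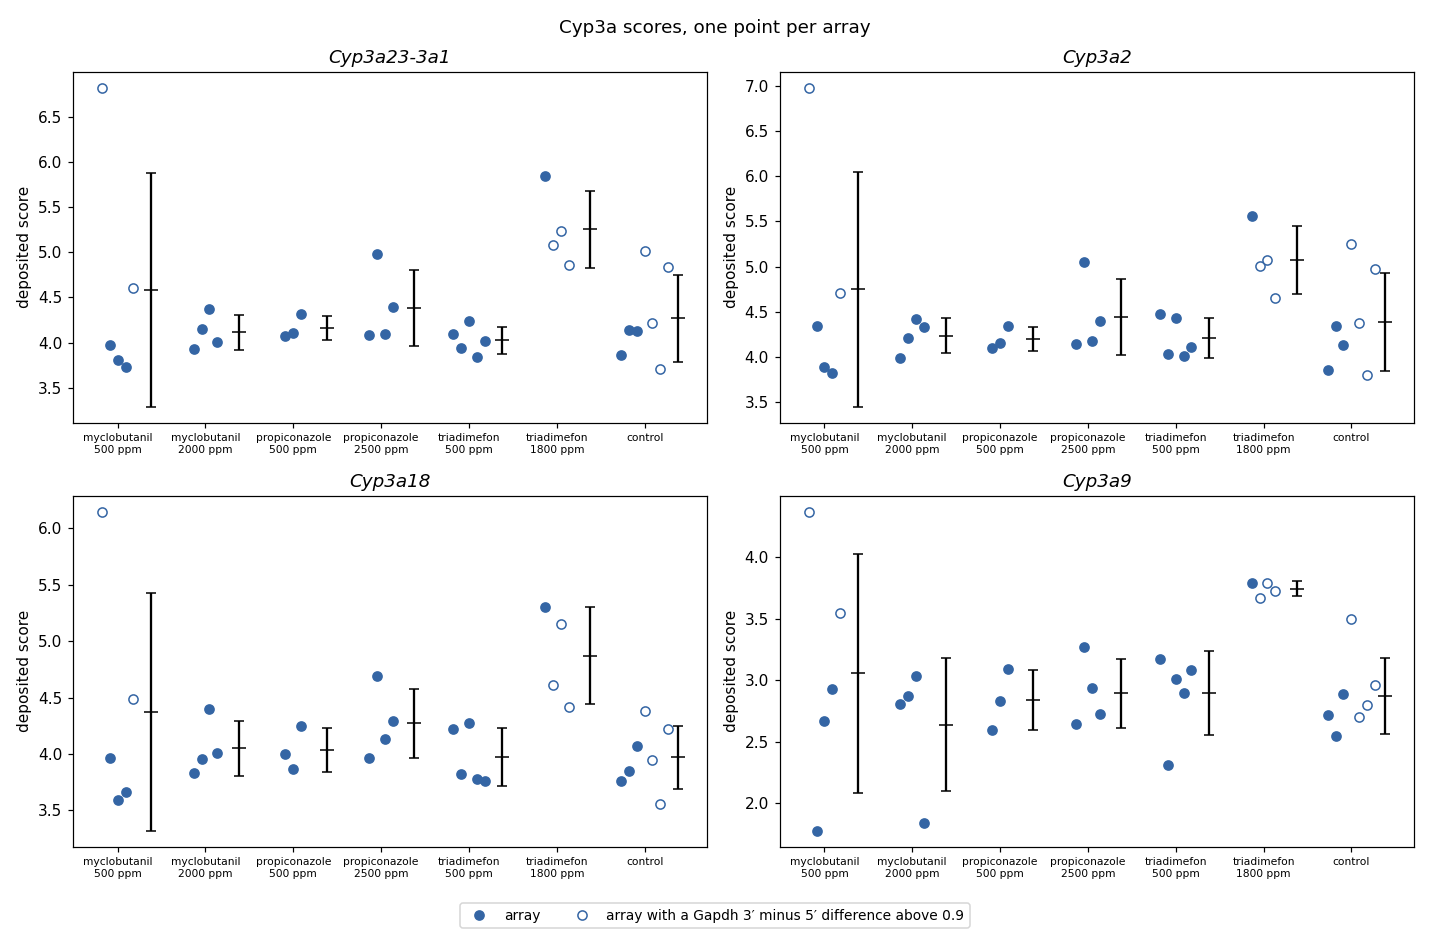
Deposited score (y) of each Cyp3a gene in every array (1 point each) by group (x), with the group mean and SD as a bar at the right of the points; open points are arrays with a Gapdh 3′ minus 5′ difference above 0.9. The 4 triadimefon 1800 ppm livers stand above all 7 controls for Cyp3a18 and Cyp3a9, and myclobutanil 500 ppm replicate 1 stands far above its own group for Cyp3a23-3a1, Cyp3a2 and Cyp3a18. The share of all probe sets so separated from the controls is not given.

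The test uses 1 spread shared by all groups, and 1 array stood far from its group. Myclobutanil 500 ppm replicate 1 scored 6.82 for Cyp3a23-3a1, 6.98 for Cyp3a2 and 6.14 for Cyp3a18, where the other 4 livers of its group had at most 4.60, 4.70 and 4.48. With the spread estimated without that array, a setting added after the data had been seen, Cyp3a18 (adjusted p = 0.00879 in limma) and Cyp3a23-3a1 (adjusted p = 0.0156) passed at triadimefon 1800 ppm against the controls. Cyp3a9 (adjusted p = 0.0658) and Cyp3a2 (adjusted p = 0.160) did not. The sizes of the 4 differences are the same in both fits.

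When the arrays were brought to 1 common distribution by quantile normalisation, 3 of the 4 genes passed at triadimefon 1800 ppm, with smaller differences on that scale. Cyp3a23-3a1 then averaged 4.78 ± 0.113 at triadimefon 1800 ppm and 4.19 ± 0.144 in the controls (SD), a difference of 0.591 with an adjusted p of 0.000749 in limma. Cyp3a18 differed by 0.541 (adjusted p = 0.000853) and Cyp3a2 by 0.302 (adjusted p = 0.0406). The Cyp3a9 difference of 0.656 missed the threshold (adjusted p = 0.224). Without the 9 arrays of a high Gapdh difference, which leaves 1 liver of triadimefon 1800 ppm, replicate 1, Cyp3a23-3a1 differed by 1.80. The highest score of that array was 7.16. Its place for Cyp3a23-3a1 was 37, the farthest from the top of the 4 treated livers. Its 3′ minus 5′ difference averaged over Gapdh and β-actin was 1.17, against 1.16 in replicate 3, which was left out. The part of scale stretch and RNA integrity in the 1.80 was not tested.

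The animal numbers in the titles fall into a series below and one above 3000, and triadimefon 1800 ppm replicates 2 to 4 and controls 5 to 7 belong to the higher one. With the series as a block, Cyp3a23-3a1 differed from the controls by 1.07 (limma adjusted p = 0.261), and within the higher series by 0.806 (adjusted p = 0.651). Within the lower series, where triadimefon 1800 ppm has 1 liver, it differed by 1.56. That liver is replicate 1, whose array reached a highest score of 7.16. All 4 genes stood higher at triadimefon 1800 ppm in both series. Cyp3a9 was the 1 gene that passed in the higher series, by 0.906 (adjusted p = 0.0484).

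**Figure D2:**
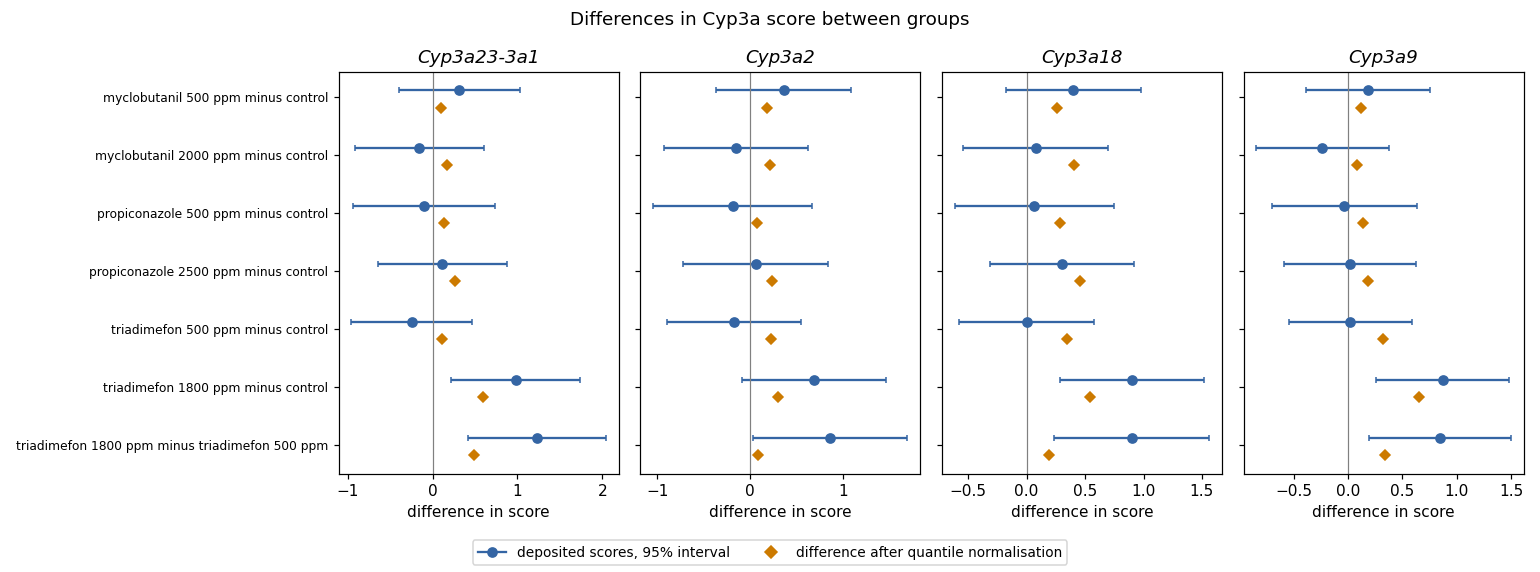
Differences in Cyp3a score (x) for each treated group minus the controls and for triadimefon 1800 ppm minus 500 ppm (y); blue points with bars are the differences of the deposited scores with 95% intervals, and orange diamonds the differences after quantile normalisation. At triadimefon 1800 ppm the intervals of Cyp3a23-3a1, Cyp3a18 and Cyp3a9 against the controls lie above 0, and that of Cyp3a2 reaches from -0.0916 to 1.46.

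The place of a probe set counted from the top of its own array does not depend on how the scale is stretched. Cyp3a23-3a1 took places 18 to 37 at triadimefon 1800 ppm and 73 to 133 in the controls, so the ranges do not meet, and every other treated array lay at place 48 or lower on the list. At propiconazole 2500 ppm it took places 52 to 69, which do not meet those of the controls either. Cyp3a9 took places 264 to 426 at triadimefon 1800 ppm against 461 to 915 in the controls, likewise apart. Cyp3a2 took places 25 to 65 at triadimefon 1800 ppm, 48 to 58 at propiconazole 2500 ppm, 45 to 70 at myclobutanil 2000 ppm and 45 to 63 at triadimefon 500 ppm, each of which overlaps the 57 to 106 of the controls. These places are a description with no test. The share of all probe sets whose places do not meet those of the controls is not given for any group. Taking places removes the stretch of the scale but not the unequal RNA integrity of the arrays.

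Cyp3a18 took places 44 to 84 at triadimefon 1800 ppm, 60 to 89 at propiconazole 2500 ppm, 66 to 125 at myclobutanil 2000 ppm, 66 to 109 at triadimefon 500 ppm, 82 to 121 at myclobutanil 500 ppm and 64 to 129 at propiconazole 500 ppm, against 105 to 223 in the controls. Its places at triadimefon 1800 ppm and propiconazole 2500 ppm do not meet those of the controls, and those of the other 4 treated groups do. After quantile normalisation it passed at propiconazole 2500 ppm (difference 0.454, limma adjusted p = 0.0107, where 1% of all probe sets passed) and at myclobutanil 2000 ppm (0.407, adjusted p = 0.0452, where 0.254% did). Whether Cyp3a18 responded more widely than the other genes was not tested.

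**Figure D3:**
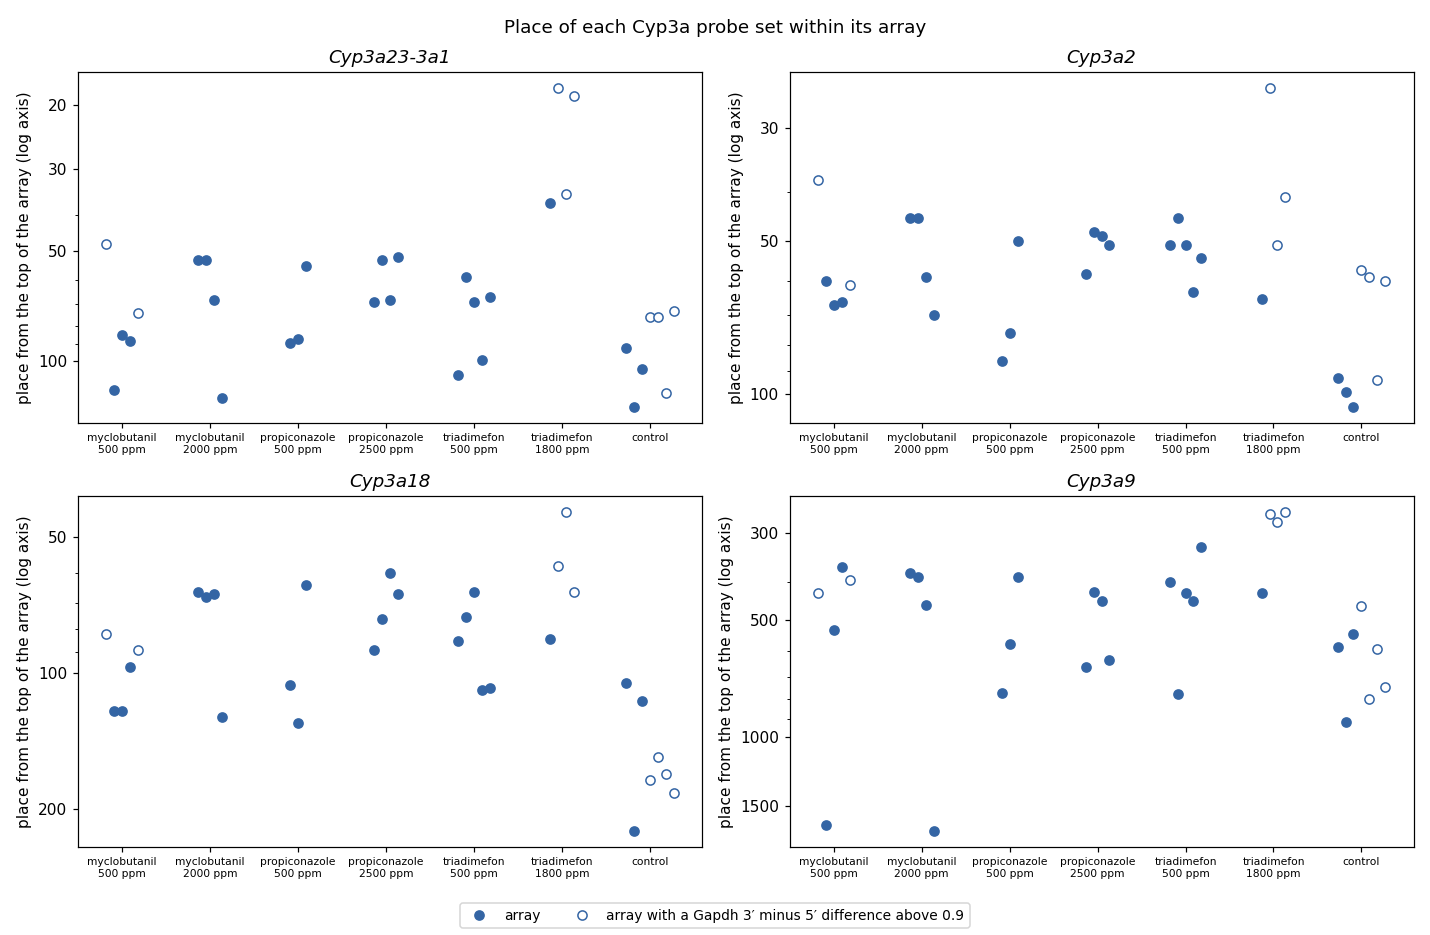
Place of each Cyp3a probe set counted from the highest score of its own array (y, log axis, highest place at the top) in every array by group (x); open points are arrays with a Gapdh 3′ minus 5′ difference above 0.9. Cyp3a23-3a1 lies at places 18 to 37 at triadimefon 1800 ppm and at 73 to 133 in the controls, and Cyp3a18 reaches below place 129 only in the controls.

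Between the levels of triadimefon, Cyp3a23-3a1 and Cyp3a18 rose, 2 of the 4 genes, where 24.8% of all probe sets passed, so a share of this size says little about the family. Cyp3a23-3a1 had 5.84, 5.09, 5.23 and 4.85 at 1800 ppm against 4.10, 3.94, 4.24, 3.83 and 4.01 at 500 ppm. It rose by 1.23 ± 0.396 (SE; 95% interval 0.415 to 2.04; limma adjusted p = 0.0282), and no liver of the higher level overlapped the lower. Cyp3a18 had 5.31, 4.61, 5.15 and 4.42 at 1800 ppm against 4.22, 3.82, 4.28, 3.78 and 3.76 at 500 ppm, a rise of 0.899 ± 0.323 (95% interval 0.238 to 1.56; adjusted p = 0.0430).

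Cyp3a9 and Cyp3a2 did not pass between these levels, although each had its 4 livers of 1800 ppm above all 5 of 500 ppm. The share of all probe sets so separated is not given, and 41.1% had an unadjusted p under 0.05 in limma there. The Cyp3a9 difference was 0.847 ± 0.317 (SE; limma adjusted p = 0.0506) and that of Cyp3a2 0.860 ± 0.404 (adjusted p = 0.110). None of the 5 arrays of triadimefon 500 ppm and 3 of the 4 of 1800 ppm had a Gapdh difference above 0.9. When the 3′–5′ difference entered the fit, Cyp3a23-3a1 differed by 0.347 (adjusted p = 0.697), Cyp3a18 by 0.304 (adjusted p = 0.716) and Cyp3a2 by -0.0515, and none of the 4 genes passed, with 0.283% of all probe sets. Leaving out the arrays of a Gapdh difference above 0.9 went the other way: Cyp3a23-3a1, Cyp3a18 and Cyp3a2 passed, with 23.5% of all probe sets, on 1 liver of 1800 ppm. Both calls were also lost without triadimefon 500 ppm replicate 2 or 4 or without triadimefon 1800 ppm replicate 1, and that of Cyp3a18 alone without triadimefon 500 ppm replicate 5 or triadimefon 1800 ppm replicate 2 or 3. All livers of 500 ppm belong to the lower animal number series. With the series as a block Cyp3a23-3a1 differed by 1.43 (adjusted p = 0.0985), and within the lower series by 1.82. The lower series holds 1 liver of 1800 ppm, replicate 1, whose array reached a highest score of 7.16.

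Cyp3a23-3a1 and Cyp3a2, the neighbours that share the direct repeat, moved almost together from array to array, with a Pearson r of 0.977 over the 32 arrays. This closeness is not particular to the pair, since Cyp3a2 had an r of 0.982 with Pgrmc1 and 0.978 with Cyp2c11. Cyp3a23-3a1 and Cyp3a2 moved by unequal amounts at triadimefon 1800 ppm. Their scores cannot be ranked against each other, being from different probes, so the difference between them within an array was compared between groups. The Cyp3a23-3a1 score minus the Cyp3a2 score was 0.290, 0.0807, 0.153 and 0.205 at triadimefon 1800 ppm. In the controls it ran from -0.233 to 0.00976, and at triadimefon 500 ppm it was -0.373, -0.0912, -0.192, -0.178 and -0.0960. The livers of triadimefon 1800 ppm overlapped neither group.

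The change in Cyp3a23-3a1 exceeded that in Cyp3a2 by 0.298 at triadimefon 1800 ppm against the controls, in 4 of 4 livers (exact two-sided permutation p = 0.00303, the smallest that 330 arrangements allow), and by 0.368 against triadimefon 500 ppm (exact permutation p = 0.00794). After quantile normalisation these values were 0.289 and 0.404. The comparison was chosen after the values had been seen, as 1 of 42 over the 6 pairs of genes, of which 4 had a p under 0.05 and 0 an adjusted p under 0.05. Its adjusted p was 0.127 against the controls and 0.167 against 500 ppm by exact permutation and Benjamini-Hochberg adjustment, so it did not pass the correction. Both p-values are the smallest that their arrangements allow. Such a p, alone among 42 tests, cannot pass this correction, so the correction cannot decide on this comparison. Whether the probe sets keep transcripts of these similar genes apart was not tested.

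**Figure D4:**
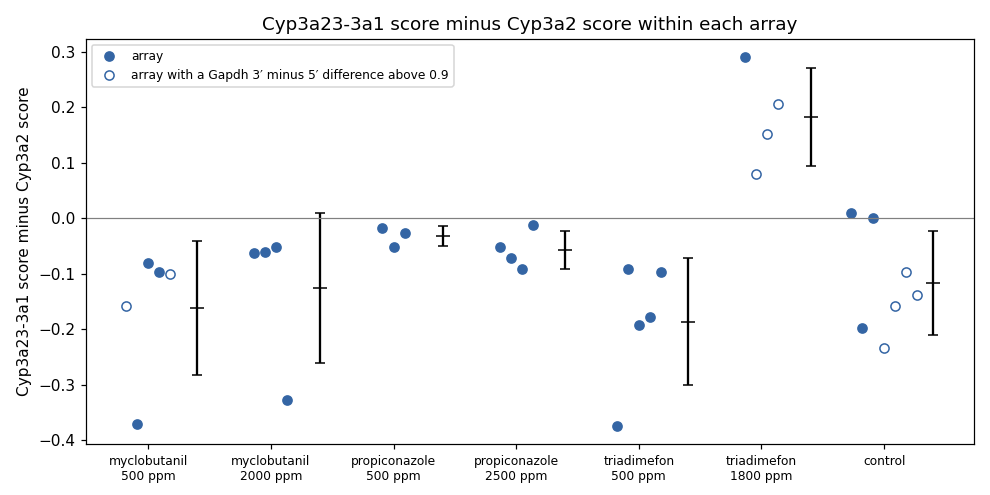
Cyp3a23-3a1 score minus Cyp3a2 score within each array (y, in score units) by group (x), with the group mean and SD as a bar; open points are arrays with a Gapdh 3′ minus 5′ difference above 0.9. The 4 livers of triadimefon 1800 ppm lie between 0.0807 and 0.290 and the 7 controls between -0.233 and 0.00976.

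In the remaining groups no Cyp3a gene passed against the controls. At propiconazole 2500 ppm 0.254% of all probe sets passed. The 4 differences there were 0.116 for Cyp3a23-3a1, 0.0561 for Cyp3a2, 0.302 for Cyp3a18 and 0.0207 for Cyp3a9. None of the 4 had an unadjusted p under 0.05 in limma, while 19.9% of all probe sets did. Cyp3a18 scored 3.97, 4.69, 4.14 and 4.29 there against 3.56 to 4.38 in the controls, so 1 of 4 livers stood above all controls. At myclobutanil 2000 ppm, where 0.0644% passed, the differences lay between -0.235 for Cyp3a9 and 0.0791 for Cyp3a18. Again no Cyp3a gene had an unadjusted p under 0.05, while 24.2% of all probe sets did. The 95% intervals reach up to 0.876 for Cyp3a23-3a1 at propiconazole 2500 ppm and 0.600 at myclobutanil 2000 ppm, so increases up to these sizes are not excluded on the deposited scale.

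At 500 ppm against the controls, 0 of the 4 genes passed in limma for any of the compounds, nor was any unadjusted p under 0.05. The share of all probe sets that passed was 0% for myclobutanil, 0% for propiconazole and 0.00966% for triadimefon, with 1281, 2866 and 9108 probe sets at an unadjusted p under 0.05. Cyp3a23-3a1 differed from the controls by 0.315 for myclobutanil, -0.107 for propiconazole and -0.246 for triadimefon. The positive value for myclobutanil rests on replicate 1, without which it was -0.244. Without that array Cyp3a2 differed by -0.199, Cyp3a18 by -0.0419 and Cyp3a9 by -0.144, each of the opposite sign to the value with it.

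The 3 compounds were compared with each other at the shared level of 500 ppm, as 3 pairs for each of the 4 genes. None of these 12 differences passed in limma or had an unadjusted p under 0.05, and 0% of all probe sets passed in each pair, with 5934, 772 and 1332 probe sets at an unadjusted p under 0.05 for triadimefon over myclobutanil, triadimefon over propiconazole and propiconazole over myclobutanil. For Cyp3a23-3a1 the ketone minus the nitrile was -0.561 (95% interval -1.33 to 0.206), the ketone minus the ketal -0.139 (-1.02 to 0.747) and the ketal minus the nitrile -0.422 (-1.31 to 0.464). The intervals are wide, so they do not show that the compounds act alike. Without myclobutanil 500 ppm replicate 1 the values against the nitrile were -0.00200 for the ketone and 0.137 for the ketal. The higher levels differ between the compounds and are given side by side only.

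Between the levels of the other compounds, 0% of all probe sets and 0 of the 4 genes passed, with 3404 probe sets for myclobutanil and 365 for propiconazole at an unadjusted p under 0.05 in limma. The Cyp3a differences ran from -0.510 to -0.322 for myclobutanil 2000 over 500 ppm, and from 0.0543 to 0.248 for propiconazole 2500 over 500 ppm. In the F test of any difference among the 7 groups 6.76% of all probe sets passed and none of the 4 genes did, with adjusted p-values of 0.203 for Cyp3a9, 0.231 for Cyp3a23-3a1, 0.254 for Cyp3a18 and 0.506 for Cyp3a2 in limma. By group mean, triadimefon 1800 ppm was highest for each gene. The order of the other groups is within their spread.

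Cyp3a9 was low in some arrays where Cyp3a23-3a1 was not. Cyp3a9 scored 1.78 in myclobutanil 500 ppm replicate 2 and 1.84 in myclobutanil 2000 ppm replicate 5, its lowest values. Cyp3a23-3a1 scored 3.97 and 4.01 in the same livers, within the range of the controls. Those arrays also had the highest summed testis marker scores, 6.81 and 7.31, against -2.32 to 2.81 in the controls. Triadimefon 1800 ppm replicate 2, with a summed score of 6.55, had a Cyp3a9 score of 3.66. Triadimefon 500 ppm replicate 3, with a sum of 5.59, had 3.01, and myclobutanil 500 ppm replicate 5, with 4.96, had 3.54. A part of testis RNA in the Cyp3a9 values was not tested.

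Over the 32 arrays the scores of Cyp3a23-3a1, Cyp3a2 and Cyp3a18 had Pearson correlations of 0.943 to 0.977 with each other, and Cyp3a9 of 0.723 to 0.793 with them. Among 9453 other genes, the scores most like Cyp3a23-3a1 were those of Cyp2c6v1 (r = 0.967), a P450 of family 2C, Cyb5a (0.953), cytochrome b5, which passes electrons to P450 enzymes, and Gsta1 (0.953), a glutathione transferase. Cyp3a18 was most like Cyb5a (0.974), Cyp2c6v1 (0.969) and Pgrmc1 (0.934), a heme-binding membrane protein. Cyp3a2 was most like Pgrmc1 (0.982), Cyp2c11 (0.978), the main male-specific P450 of rat liver, and Selenop (0.977), a plasma selenium carrier. Cyp3a9 had other companions, Slco1a4 (0.855), an uptake transporter of organic anions, Fmo5 (0.800), a flavin-containing monooxygenase, and Tmem97 (0.797), a membrane protein of sterol handling. These values describe 32 arrays that share the stretch of each array's scale and its RNA integrity.

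Genes around the Cyp3a family behaved differently by list at triadimefon 1800 ppm against the controls. Of 22 measured other PXR and CAR targets, 10 rose and 0 fell, with a median difference of 0.645, where 1.17% of all probe sets passed and their median was 0.0185. Ces2c, a carboxylesterase, rose by 1.75 ± 0.164 (SE; limma adjusted p = 3.41e-07), Abcc3, an export pump of organic anions, by 0.812 ± 0.0801 (adjusted p = 8.34e-07) and Aldh1a1, a retinaldehyde dehydrogenase, by 2.28 ± 0.255 (adjusted p = 5.5e-06). The same 3 were the most clearly changed of 5 that rose at propiconazole 2500 ppm, with rises of 1.21, 0.480 and 1.53, and 0 of the 22 passed in either direction in the other 4 treated groups. The SE of a Cyp3a difference was 0.296 to 0.378 here, against a median of 0.261 over the 498 probe sets with a mean score over 3 and 0.0423 over all.

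The genes that supply P450 enzymes with electrons and heme changed in 2 of 15 cases at triadimefon 1800 ppm against the controls. In this comparison 1.17% of all probe sets passed. Por, the reductase that feeds electrons to P450 enzymes, rose by 1.15 ± 0.167 (SE; limma adjusted p = 0.000227) and Alas1, the first enzyme of heme synthesis, by 1.08 ± 0.177 (adjusted p = 0.000817). Of 20 regulators of Cyp3a transcription, PXR and CAR among them, 0 passed, with a median difference of 0.00930. Of 14 male-predominant genes 0 passed (median 0.191), and of 13 female-predominant genes 0 passed (median 0.0233). With so small a share of all probe sets passing, these counts of 0 say little about the lists. At propiconazole 2500 ppm, where 0.254% of all probe sets passed, 1 of the 14 male-predominant genes rose. This was Cyp4a8, a fatty acid hydroxylase, by 1.03 ± 0.191 (SE; limma adjusted p = 0.0163).

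Against triadimefon 500 ppm, 13 of the 22 other PXR and CAR targets, 10 of 15 supply genes and 5 of 20 regulators rose at 1800 ppm and none of them fell, beside the 24.8% of all probe sets that passed. The arrays of 500 and 1800 ppm differ in RNA integrity, as given above. Genes and markers of the lists were not refitted with the 3′–5′ difference between these levels, so its part in their rises was not tested. The share of the regulators is close to that of all probe sets, so this count says little about them. Rxrb, a retinoid X receptor, rose by 0.292 ± 0.0715 (SE; limma adjusted p = 0.00863) and Cebpb by 0.755 ± 0.230 (adjusted p = 0.022). Hnf4a, a liver factor known to act on CYP3A genes, rose by 0.999 ± 0.312 (adjusted p = 0.0247). Markers of other cells moved as well. Against the controls, the median difference at triadimefon 1800 ppm was 0.343 for Kupffer cell markers and 0.278 for hepatocyte markers. It was 0.113 for stellate and matrix markers and 0.0208 for biliary markers. Against the controls, 2 of 12 stellate and matrix markers rose at triadimefon 1800 ppm (summed score 6.35 to 8.34 against 4.51 to 5.92), 1 of 6 biliary markers did (0.678 to 1.19 against 0.0431 to 0.324), 0 of 11 Kupffer cell markers did (13.3 to 18.5 against 9.95 to 16.4) and 0 of 14 hepatocyte markers did (60.8 to 77.2 against 55.0 to 72.0). Among all probe sets 1.17% passed there, so the counts of 0 say little about their lists. Against triadimefon 500 ppm, 7 of 11 Kupffer cell markers rose (13.3 to 18.5 against 7.37 to 14.6), as did 4 of 12 stellate and matrix markers (6.35 to 8.34 against 4.17 to 5.98). The share of the stellate and matrix markers is near the 24.8% of all probe sets, so that count says little about them. Of the 14 hepatocyte markers 13 were higher and 1 passed, Asgr1, a receptor for asialoglycoproteins. Their median difference of 0.774 stands beside 0.880 for the 4 Cyp3a genes. The part of these cell markers in the Cyp3a values was not tested, and in whole liver more cells of a type and more RNA per cell cannot be told apart.

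The other inducible P450 families stood beside these values as follows. A probe set with the symbols Cyp2b2 and Cyp2b1, the classical CAR targets, differed from the controls by 1.45, 1.48 and 1.49 at 500 ppm of myclobutanil, propiconazole and triadimefon. Its differences were 1.72, 2.22 and 2.93 at the higher levels in that order, where it passed. In each of the 6 treated groups every liver scored above every control for this probe set, which was so for 2 of the 4 Cyp3a genes in 1 group. The share of all probe sets separated in this way is not given, so these counts are a description only. Cyp1a1, the classical target of the dioxin receptor, rose by 2.49 ± 0.361 at triadimefon 1800 ppm (SE; limma adjusted p = 0.000224) and did not pass in the other treated groups. After quantile normalisation Cyp1a1 passed at propiconazole 2500 ppm too (1.64, limma adjusted p = 0.0278), and the Cyp2b probe set passed at 500 ppm of myclobutanil (adjusted p = 0.0035), propiconazole (adjusted p = 0.000938) and triadimefon (adjusted p = 9.57e-06). The size of these differences is not set against that of the Cyp3a genes, since the probes differ.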

How the data were processed

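Each array had 1 deposited score per probe set (31099); no source states how the authors made this score from the scans, so its scale is unknown. Of 35 listed arrays, 3 hold no values (1 of myclobutanil 2000 ppm, 2 of propiconazole 500 ppm) and were left out. Groups came from the sample titles. Tests ran on 31042 probe sets, leaving aside 57 controls of the maker. The platform annotation gave 1 symbol to 20826 of them, several to 436 and none to 9780. The 4 Cyp3a symbols matched the rat gene table. All 32 arrays entered 1 fit of 7 groups (limma 3.58.1 in R 4.3.3, lmFit and eBayes at defaults, 25 residual degrees of freedom), with 12 comparisons. The test had been planned for log2 values and was run on the deposited scores unchanged. It was tested on simulated data. Motif search, alignment and permutations used Python 3.11.15 and Biopython 1.88. Genes of the lists were named by rule: up to 3 past the threshold with the smallest p per list and comparison. For each Cyp3a gene the 3 of highest Pearson r are named. Members and lists were chosen with earlier results of these data known. Alternatives were quantile normalisation, scaling of each array, a filter on low scores, only the groups compared, trend and robust settings, the animal number series, the replicate number, the 3′–5′ difference of the Gapdh and β-actin control probe sets, and leaving arrays out. Replicate numbers are a running order within each group, and the titles name no pairing. The design text calls the arrays biological replicates, and their number limits the precision.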

Additional observations from a re-analysis of the deposited data

Results flagged for a closer look

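Myclobutanil 500 ppm replicate 1 lay far from the other 4 livers of its group for Cyp3a2, at 6.98, and for Cyp3a23-3a1, at 6.82. The gap to its nearest neighbour was 0.720 of the group's range for Cyp3a2 and 0.716 for Cyp3a23-3a1, above the 0.71 that a group of 5 allows. These were 2 of 24 combinations of gene and group examined, and chance alone singles out about 1 in 20. The array also had the highest Gapdh 3′ minus 5′ difference, 2.62, and the highest standard deviation over probe sets, 1.02. Its part in the values was not tested beyond leaving it out.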

How the results depend on the processing

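The count of Cyp3a genes that passed at triadimefon 1800 ppm against the controls, 0 as reported, was 3 after quantile normalisation (1.39% of all probe sets passed), 3 when the 3′–5′ covariate was added to that (2.13%), 3 without the arrays of a Gapdh difference above 0.9 (17.7%), 2 after scaling each array (0.902%), 2 with the spread estimated without myclobutanil 500 ppm replicate 1 (1.62%), and 1 with only the compared groups in the fit (0.216%) or only animal numbers above 3000 (0.0419%). Cyp3a9 was that 1 gene in both cases. For triadimefon 1800 ppm over 500 ppm, 2 as reported, it was 4 with only these groups in the fit (25.4%) and 4 without that myclobutanil array in the spread (30.3%). It was 3 without the dimmest 40% of probe sets (27.5%), 3 with trend and robust settings (25.3%) and 3 without the arrays of a high Gapdh difference (23.5%). It was 1 after quantile normalisation (9.67%), 1 after scaling (17.7%) and 1 with the replicate block (27%). It was 0 with a block for the series of animal numbers, 0 among numbers below 3000, with the 3′–5′ covariate and with that covariate after quantile normalisation, and between 0 and 2 with 1 array left out. At myclobutanil 2000 ppm and propiconazole 2500 ppm it was 1 after quantile normalisation (Cyp3a18) and 1 with the covariate as well (Cyp3a2), and at triadimefon 500 ppm 1 with both (Cyp3a2). Cyp3a2 turned sign between the levels of triadimefon, to -0.0515 with the covariate and -0.102 with quantile normalisation too. With both it was also 0.335 at myclobutanil 2000 ppm and 0.369 at triadimefon 500 ppm against the controls, where the reported values are negative. The cause of these shifts was not tested. Of 564 member differences under other settings, 524 stayed on the same side of the threshold with a called sign unchanged and 108 changed sign, the 4 above among them. With 1 array left out, 463 of 472 kept their side and 9 fell below it. The replicate block changed no other Cyp3a count. Same-numbered livers deviated together in 24 of 76 pairs (r over 0.1). The numbers are a running order within each group, so this check and the replicate block had no named pairing to find. Using other probe sets of a gene could not be run, since each Cyp3a gene has 1. Limits are the unequal stretch of the arrays, the RNA integrity reading, the animal number series and the 3 to 7 arrays per group.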
